A study of Homo sapiens with 12 samples.

Results

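GAS summits were STAT5B ChIP-seq peaks whose highest point lay close to a gamma-activated site, the palindrome to which STAT dimers bind. A peak was counted when the 9-base palindrome TTCNNNGAA, in which N is any base, lay fully within 50 bp on either side of the peak summit in the GRCh38 reference. In 6 deposited peak lists, 1355 of 23569 autosomal peaks were GAS summits. The other 22214 autosomal peaks served as the comparison, and 1275 peaks outside the autosomes were not analysed here.

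The peaks came from 6 established human T-cell acute lymphoblastic leukemia (T-ALL) cell lines, each labelled as a precursor T-cell line of wild-type genotype. That label does not cover their leukemia mutations: per the study, both STAT5B alleles of KOPT-K1 carry an activating mutation of the SH2 domain, and DND-41 has an activating mutation of IL7R and an inactivating mutation of PTPRC. The lines DND-41, KOPT-K1, SUP-T13, and HSB-2 carried the label of high STAT5 activation (high pY-STAT5), and LOUCY and JURKAT that of low activation (low pY-STAT5). Each line had 1 library made with an antibody to STAT5B and 1 input library, with no stated treatment, so there was no replicate within a line and the cell line was the unit of every test. The sequencing depth behind the peak lists is unknown, and all intervals given are exact (Clopper-Pearson) 95% intervals that cover counting error only.

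STAT5A and STAT5B are transcription factors that cytokine receptors activate through JAK kinases. Tyrosine phosphorylation lets STAT5 proteins pair through their SH2 domains, enter the nucleus, and bind palindromic sites as dimers, each partner touching one half-site. In T-cell precursors, interleukin-7 is the classic activator of this pathway, and mutations of the receptor, of JAK kinases, or of STAT5B occur in T-ALL.

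The sequences below show the sites with the strongest peaks. The −log10 q is the peak caller's significance after correction for multiple testing, and a higher value marks a stronger peak. Each sequence is the plus strand of GRCh38, 5′ to 3′, with the palindrome in capitals and 10 bases on either side, and each is named by its nearest protein-coding gene. The first set holds 8 of the 10 sites with the highest −log10 q over all lists, in descending order.

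ZFP36L2 (chr2:43047145-43047173): tgagcaatttTTCTTGGAAactggaaacc
MZT2A (chr2:131504500-131504528): ttcagtgtatTTCCTAGAAgcgaatgcat
PTPN4 (chr2:119929648-119929676): tggtatttttTTCTCTGAAatttccacac
PKDCC (chr2:41896693-41896721): agcctgcaagTTCTCAGAAagtgggtgaa
MRPS5 (chr2:95074667-95074695): taaatgccctTTCTGAGAAgcaaccatga
B3GNT2 (chr2:62288385-62288413): cccccaggatTTCTAAGAAgtgcttggcc
MTHFD2 (chr2:74206332-74206360): tgactctgacTTCTGGGAAatagctttca
TULP2 (chr19:48878577-48878605): ctcatgagcaTTCCTGGAAaaagatggag

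Of these 8, the palindrome next to ZFP36L2, an RNA-binding protein that speeds the decay of messenger RNAs, had the highest −log10 q, at 156 in HSB-2 with a fold enrichment over input of 5.44. It lay 175 kb beyond the gene and 12 bp from the summit. The PKDCC site, 151 kb before the gene of a secreted tyrosine kinase, was the strongest in DND-41, enriched 6.18-fold at a −log10 q of 106. The MTHFD2 palindrome lay in intron 2 of the canonical transcript of this mitochondrial folate enzyme, 38 bp from one of the start sites of the gene. It was at a summit of HSB-2 (−log10 q of 93.6) and of DND-41 (−log10 q of 38.1). The HSB-2 interval was 15.6 Mb long and the DND-41 interval 58483 bp. The TULP2 site on chromosome 19 was the only one of the 8 outside chromosome 2, enriched 3.26-fold at a −log10 q of 89.2 in HSB-2.

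The next set holds further sites that were among the 2 strongest of a cell line, or that lay at the summits of 3 lines.

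CAMKMT (chr2:44674606-44674634): tgtaaatcttTTCCCAGAAtaacggaagt
ACTR3 (chr2:113876973-113877001): tggattacatTTCTCAGAAatgcctctga
RPRM (chr2:153176996-153177024): cacaggaagtTTCTCAGAAgagcaatttt
GAD1 (chr2:170843891-170843919): cttaatgcatTTCCAGGAAatgaatcatg
GTF3C3 (chr2:196799712-196799740): accggcgtccTTCTGGGAAactcgcccgg
ZNF33B (chr10:40593397-40593425): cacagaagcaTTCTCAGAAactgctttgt
SRGAP2C first site (chr1:121773459-121773487): gacagaatgaTTCTCAGAAactcctttgt
SRGAP2C second site (chr1:121747532-121747560): gacagaatcaTTCTCAGAAactgctgcgt

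CAMKMT, which encodes a methyltransferase of calmodulin, held the strongest GAS summit of KOPT-K1 and of SUP-T13 at the same palindrome, in intron 3. The fold enrichment there was 6.35 in KOPT-K1 and 4.74 in SUP-T13, with −log10 q of 71.8 and 70.0. The strongest site of LOUCY, in the region named by ZNF33B, lay 1981 kb from that gene, with a −log10 q of 20.8, and its 29 printed bases occurred 104 times on the autosomes. Both leading sites of JURKAT lay far beyond SRGAP2C, at 381 and 355 kb from the gene, with −log10 q of 15.6 and 7.91. Their 29 bases occurred 6428 and 1451 times. The second site of LOUCY had a 29-base stretch that occurred once. It lay 43 bp from a start site of GTF3C3, a subunit of a transcription factor of RNA polymerase III, enriched 2.56-fold at a −log10 q of 13.9.

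Some windows held more than 1 palindrome. The TULP2 window is shown as an example, with the bases within 50 bp of the centre of its leading palindrome and both palindromes in capitals.

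TULP2 (chr19:48878541-48878641): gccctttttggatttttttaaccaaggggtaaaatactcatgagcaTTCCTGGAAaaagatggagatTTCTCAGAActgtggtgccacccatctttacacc

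Windows with 2 or more palindromes made up 44 of the 615 GAS summits of DND-41, 9 of 229 in HSB-2, 8 of 104 in KOPT-K1, 3 of 162 in SUP-T13, 4 of 188 in JURKAT, and 3 of 57 in LOUCY.

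The first question was whether palindromes lay at summits more often than in nearby sequence. Control windows of the same length were centred 1000 bp to either side of each summit. In DND-41, 10.3% of summits (interval 9.56 to 11.1%, 615 of 5957) were GAS summits, against 3.76% of its flank windows. HSB-2 had 7.55% (6.63 to 8.55%, 229 of 3033 windows without unsequenced bases), against 4.55%. These were the 2 lines whose summit interval lay wholly above the flank interval. In the other 4 lines the intervals overlapped. In KOPT-K1 the share was 4.32% (3.55 to 5.22%, 104 of 2405), against 4.41% in the flanks. SUP-T13 had 3.72% (3.18 to 4.32%, 162 of 4357), against 3.18%. The low pY-STAT5 lines gave values close to their flanks. LOUCY had 2.99% (2.27 to 3.85%, 57 of 1909), against 3.15%. JURKAT had 3.18% (2.75 to 3.66%, 188 of 5905), against 3.20%. The call of HSB-2 was lost with intervals of at most 5 kb, at a difference of 2.60 percentage points, and without chromosomes 1 and 2, at 12.6.

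Averaged over the 6 lines, the summit share exceeded the flank share by 1.64 percentage points (SD 2.69, n = 6, higher in 3 of 6 lines), and an exact two-sided sign-flip permutation test over lines gave p = 0.250. The high pY-STAT5 lines had a mean difference of 2.50 percentage points (SD 3.02, n = 4) and the low lines −0.0887 (SD 0.100, n = 2). The gap of 2.59 percentage points had an exact two-sided permutation p of 0.267. With 4 lines against 2, the smallest p this exact test can give is 0.133, so the design cannot reach the usual threshold. DND-41 carried much of both values. Without it, the mean difference was 0.655 and the gap between the groups 1.24 percentage points.

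Strong peaks gave another picture. Among peaks with a −log10 q of at least 5, 34.4% were GAS summits in DND-41 (30.9 to 38.0%, 241 of 701), against 6.65% of the flank windows of the same peaks. In HSB-2 the share was 31.3% (25.2 to 38.0%, 67 of 214), against 6.79%. KOPT-K1 reached 29.7% (21.4 to 39.1%, 33 of 111), against 8.14%, and SUP-T13 14.3% (9.85 to 19.8%, 30 of 210), against 4.56%. All 4 high pY-STAT5 lines were thus called above their flanks at this threshold. LOUCY had 3.91% (1.28 to 8.88%, 5 of 128), against 4.74%, and JURKAT 7.69% (3.58 to 14.1%, 9 of 117), against 5.17%. Neither low line was called above its flanks, although their intervals are wide. The mean difference over lines was 14.2 percentage points (exact sign-flip p = 0.0625). Between the groups it was 20.9 (SD 7.85, n = 4) against 0.842 (SD 2.37, n = 2), with the smallest exact permutation p possible, 0.133, and no overlap of the groups. With intervals of at most 5 kb, KOPT-K1 and HSB-2 were no longer called, at differences of 4.96 and 24.2 percentage points. At a −log10 q of 20 or more, KOPT-K1 and SUP-T13 were not called, at 8.90 and 32.7.

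**Figure D1:**
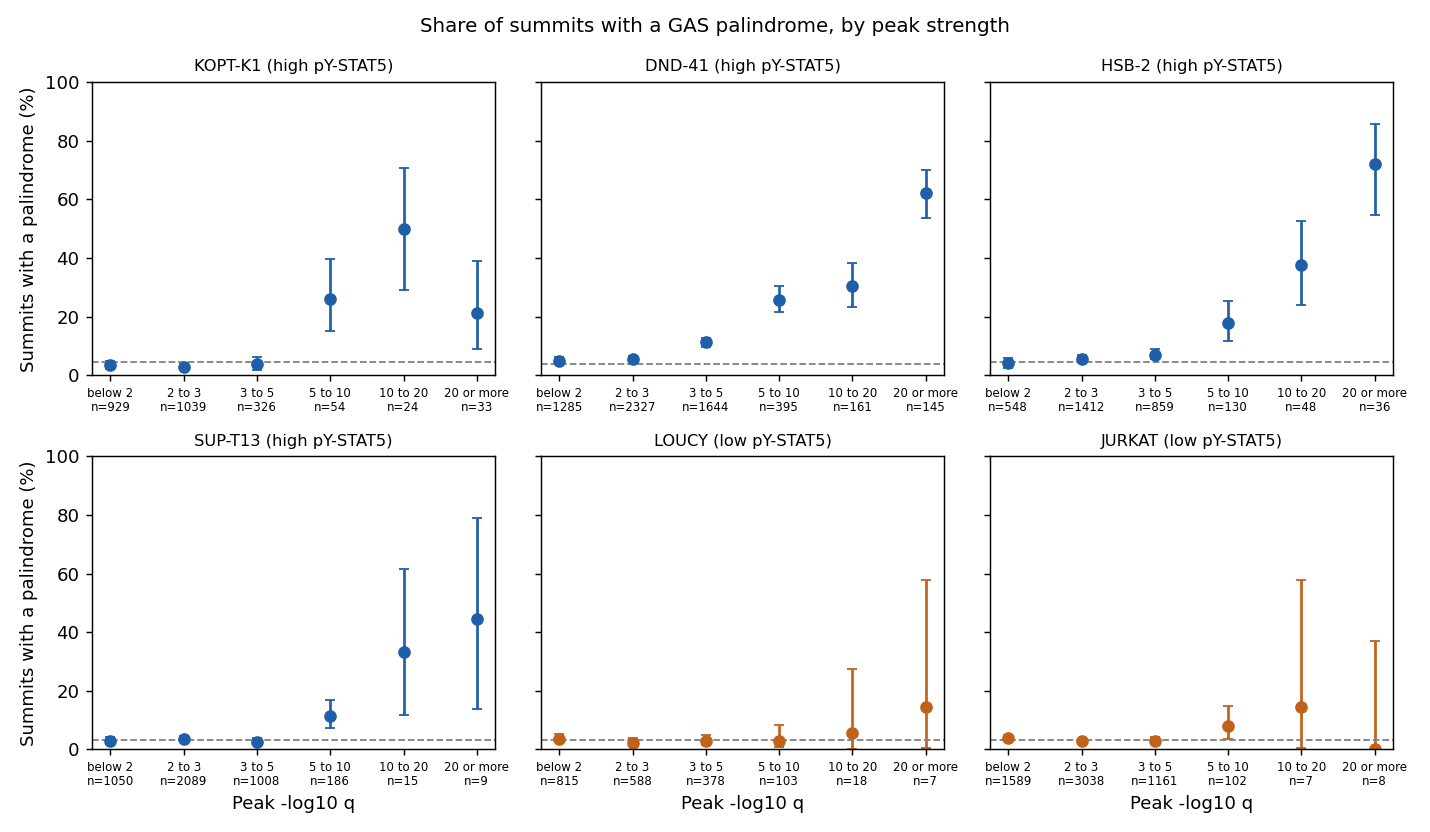
Percentage of summits with a GAS palindrome (vertical axis) in classes of peak −log10 q (horizontal axis), 1 panel per cell line; bars are exact 95% intervals, n is the number of summits, and the dashed line is the share in that line's flank windows. DND-41 and HSB-2 reach 62.1% and 72.2% in the strongest class, while LOUCY reaches 14.3% of 7 summits and JURKAT 0% of 8.

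The share grew with peak strength in DND-41, from 4.98% of the 1285 peaks with a −log10 q below 2 to 62.1% of the 145 peaks at 20 or more. In HSB-2 it went from 4.01% of 548 peaks to 72.2% of 36 peaks. SUP-T13 had 2.86% of 1050 peaks in the lowest class and 44.4% of 9 peaks in the highest. KOPT-K1 peaked between 10 and 20, at 12 of 24 peaks (29.1 to 70.9%), and had 21.2% of 33 peaks (8.98 to 38.9%) in the highest class. The weaker peaks also differed between lines: below 5, DND-41 had 7.12% (6.44 to 7.84%) against 3.38% in the flanks and was called above them, whereas KOPT-K1 had 3.10% (2.42 to 3.89%) against 4.23%.

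Read from the other side, 39.2% of the GAS summits of DND-41 (35.3 to 43.2%) had a −log10 q of at least 5, where 11.8% of all its autosomal peaks did. For KOPT-K1 it was 31.7% (22.9 to 41.6%), where 4.62% of all peaks passed, for HSB-2 29.3% (23.5 to 35.6%), where 7.05% passed, and for SUP-T13 18.5% (12.9 to 25.4%), where 4.82% passed. LOUCY had 8.77% (2.91 to 19.3%), where 6.70% passed, and JURKAT 4.79% (2.21 to 8.89%), where 1.98% passed.

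The arrangement of the half-sites was checked with motifs chosen after the data had been seen. At summits of DND-41 with a −log10 q of at least 5, half-sites 2 bases apart (TTCNNGAA) occurred at 3.28% of summits and 3.00% of flank windows. Half-sites 4 bases apart occurred at 5.14% and 3.93%. Half-sites turned outward (GAANNNTTC) occurred at 46 of 701 summits (4.84 to 8.66%) and 84 of 1399 flank windows (4.82 to 7.38%). In HSB-2 these shares were 1.87% and 3.04%, 7.01% and 5.39%, and 6.54% and 9.60%, in the same order. For each of these 3 arrangements the intervals of summits and flanks overlapped in both lines, unlike those of the 3-base spacer.

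Position within the peak was compared next. In the strong peaks of DND-41, palindromes were found at 5.25 per kb in the 50-bp bin at the summit, and at 0.713 per kb on average over the bins 500 bp or more away. HSB-2 had 4.11 and 0.776 per kb, KOPT-K1 3.42 and 1.11, and SUP-T13 1.90 and 0.462. In LOUCY the central bin held 0.312 and the outer bins 0.516 per kb, and in JURKAT 0.684 and 0.624. The central bins of these low lines held only 2 and 4 palindromes, against 66 and 73 over 20 outer bins, so no difference was detectable. All autosomes together held 0.449 per kb, from 1237270 matches.

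Among strong GAS summits, the palindrome nearest to the summit had a median distance of 16.0 bp in DND-41, 17.0 bp in HSB-2, and 17.5 bp in SUP-T13, and in KOPT-K1 17 of 33 sites were centred within 20 bp. In LOUCY it was 38.0 bp over 5 sites and in JURKAT 36.0 bp over 9 sites. Over all GAS summits, 27.8% (24.3 to 31.5%) of the sites in DND-41 were centred within 10 bp of the summit, 27.9% (22.2 to 34.2%) in HSB-2, and 26.9% (18.7 to 36.5%) in KOPT-K1. SUP-T13 had 22.2% (16.1 to 29.4%), LOUCY 24.6% (14.1 to 37.8%), and JURKAT 19.7% (14.3 to 26.1%). A site placed evenly within the window would fall there in 22.6% of cases, and over all GAS summits DND-41 alone had an interval above that value. The share in flank windows was 25.0% (21.1 to 29.3%) in DND-41 and 19.6% (15.1 to 24.7%) in HSB-2, and both intervals overlapped those of the summits. Among strong GAS summits the share was 33.2% (80 of 241) in DND-41 and 37.3% (25 of 67) in HSB-2, against 27 of 93 and 8 of 29 of the sites in the flanks of the same peaks. The intervals of strong summits and their flanks overlapped in every line, so no excess over the flanks within 10 bp was detectable there. Against the even value of 22.6%, the strong-summit intervals of DND-41 and HSB-2 lay wholly above it, with lower limits of 27.3% and 25.8%. Those of the other lines included it. The even value holds for a window with 1 palindrome. More were held by 27 of the 241 strong windows of DND-41 and 6 of the 67 of HSB-2. Within 20 bp, over all GAS summits, the intervals of summits and flanks did not overlap in HSB-2, at 52.4% (45.7 to 59.0%) and 39.5% (33.7 to 45.5%). They overlapped in every other line.

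The 3 spacer bases were then compared, a spacer and its reverse complement being read as the same. Spacers fell into the classes TTCCNGGAA, TTCTNAGAA, and TTCCNAGAA with its reverse complement TTCTNGGAA, in which a pyrimidine comes first and a purine last, and all others. These 3 classes made up 47.2% of all autosomal matches. At GAS summits they made up 70.2% in DND-41 (66.5 to 73.8%, 432 of 615), against 43.1% of the sites in its flank windows, and 66.8% in HSB-2 (60.3 to 72.9%, 153 of 229), against 39.9%. SUP-T13 had 51.9% (43.9 to 59.8%, 84 of 162), against 32.1%, and KOPT-K1 also 51.9% (41.9 to 61.8%, 54 of 104), against 41.0%. LOUCY had 42.1% (29.1 to 55.9%, 24 of 57), against 37.5%, and JURKAT 37.8% (30.8 to 45.1%, 71 of 188), against 40.5%. The intervals of summits and flanks did not overlap in DND-41, HSB-2, and SUP-T13. They overlapped in KOPT-K1, where the flank interval was 34.3 to 48.0%, and in both low lines. Against the 47.2% of all autosomal matches, the SUP-T13 difference was 4.65 percentage points and its summit interval included that value. The JURKAT interval lay wholly below it, and so did that of the JURKAT flanks (35.5 to 45.6%). The flank intervals of HSB-2, SUP-T13, and LOUCY also lay wholly below it, and those of DND-41 and KOPT-K1 included it.

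At strong summits these classes made up 87.9% of the sites in KOPT-K1 (71.8 to 96.6%), 83.6% in HSB-2 (72.5 to 91.5%), 79.3% in DND-41 (73.6 to 84.2%), and 76.7% in SUP-T13 (57.7 to 90.1%). In the flanks of the same strong peaks the share was 8 of 18 sites in KOPT-K1 (21.5 to 69.2%), 58.6% in HSB-2 (38.9 to 76.5%, 17 of 29), 52.7% in DND-41 (42.1 to 63.1%, 49 of 93), and 6 of 19 in SUP-T13 (12.6 to 56.6%). The intervals of summits and flanks overlapped in HSB-2 and did not in the other high lines. LOUCY had 4 of 5 such sites at strong summits and JURKAT 6 of 9, each against 7 of 12 in the flanks, with intervals that overlapped. The class TTCCNGGAA was the rarest of the 3 in the genome, at 5.45% of matches, and made up 17.9% (14.9 to 21.1%) of the sites in DND-41. The leading spacer in DND-41 was CAG or CTG, with 108 of 615 sites, followed by TCA or TGA with 105. In the genome TCA or TGA was the most frequent spacer, at 22.7% of matches, and CAG or CTG had 5.07%. In HSB-2, TCA or TGA led with 53 of 229 sites.

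In DND-41, HSB-2, and KOPT-K1, strength also differed between some of the spacer classes. In DND-41, 42.7% of the TTCCNGGAA sites, 43.2% of the TTCTNAGAA sites, and 46.2% of the TTCCNAGAA sites had a −log10 q of at least 5, against 27.3% (21.0 to 34.4%) of the sites with other spacers. In HSB-2 the values were 47.8%, 37.9%, 31.2%, and 14.5% (7.45 to 24.4%), and in KOPT-K1 3 of 11, 16 of 25, 10 of 18, and 4 of 50 sites (2.22 to 19.2%). The interval of TTCTNAGAA did not overlap that of other spacers in these lines. The same held for TTCCNAGAA in DND-41 and KOPT-K1 and for TTCCNGGAA in HSB-2. The rest overlapped, among them TTCCNGGAA in DND-41 (33.3 to 52.5%). In SUP-T13, LOUCY, and JURKAT the interval of every class overlapped that of other spacers. TTCCNGGAA had 0 of 3 strong sites in LOUCY and 0 of 14 in JURKAT, against 1 of 33 and 3 of 117 with other spacers. These are descriptions of single libraries.

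Fold enrichment, the ratio of STAT5B signal to input that the peak caller gives, was not used to choose the members. Its median at GAS summits and at other summits was 2.47 and 2.22 in DND-41, 2.16 and 2.07 in KOPT-K1, 2.06 and 2.01 in SUP-T13, and 2.00 and 1.88 in HSB-2. The low lines had 1.91 and 1.92 (JURKAT) and 1.70 and 1.72 (LOUCY). On the log2 scale the mean was higher at GAS summits by 0.24 in DND-41, 0.21 in KOPT-K1, 0.21 in HSB-2, 0.07 in SUP-T13, 0.01 in JURKAT, and 0.00 in LOUCY. The mean of these differences was 0.12 (higher in 6 of 6 lines), with an exact two-sided sign-flip p of 0.0312, the smallest that 6 lines allow. This count and p rest on the sign of values next to 0, 0.000114 in LOUCY and 0.00563 in JURKAT. With medians in place of means the difference was 0.05 (exact p = 0.125) and was below 0 in LOUCY and JURKAT. With sites whose 29 bases occur once it was 0.10 (exact p = 0.125), with intervals of at most 5 kb 0.10 (exact p = 0.0625), and on chromosomes 1 and 2 alone 0.14 (exact p = 0.0938), so the call was lost in each of these settings. Among peaks with a −log10 q of 5 or more it was kept, at 0.15 (exact p = 0.0312, higher in 6 of 6 lines). In that setting the values of LOUCY and JURKAT rest on only 5 and 9 GAS summits.

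The high end of the distribution set GAS summits apart more than the median did. In DND-41 the upper quartile of fold enrichment was 3.02 at GAS summits and 2.39 at others, and in KOPT-K1 it was 2.68 and 2.19. In JURKAT both upper quartiles were 2.06. The highest −log10 q of a line lay at another summit in 5 of 6 lines. It was 71.8 at GAS summits and 176 at other summits in KOPT-K1, 20.8 and 163 in LOUCY, 15.6 and 86.2 in JURKAT, 70.0 and 77.6 in SUP-T13, and 156 and 158 in HSB-2. In DND-41 it lay at a GAS summit, at 106 against 91.0.

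The GAS summits of all lines comprised 1385 distinct palindromes. Of these, 1347 lay at a summit of 1 line, 35 of 2 lines, and 3 of 3 lines. Among the 38 shared palindromes, 29 were shared by high pY-STAT5 lines alone, 8 by a high and a low line, and 1 by LOUCY and JURKAT. DND-41 and HSB-2 alone shared 15, the largest number for any pair when the palindromes of 3 lines are left aside. As the lists differ in length, these counts are not a measure of likeness.

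The 3 palindromes at summits of 3 lines were all on chromosome 2 and in high pY-STAT5 lines. PTPN4, a protein tyrosine phosphatase, had one in intron 13, enriched 5.14-fold in HSB-2 (−log10 q of 117), 4.47-fold in KOPT-K1 (19.8), and 4.13-fold in SUP-T13 (27.2). GAD1, the enzyme that makes the neurotransmitter GABA from glutamate, had one in intron 6, enriched 5.43-fold in DND-41, 3.88-fold in HSB-2, and 2.85-fold in KOPT-K1. The third lay between genes, 300.3 kb from RPRM, enriched 4.98-fold in DND-41, 4.96-fold in HSB-2, and 2.93-fold in KOPT-K1. The 29 bases around each of these 3 palindromes occurred once on the autosomes.

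Summits of other lines lay within 100 bp of 13.5% of the GAS summits of KOPT-K1 (7.56 to 21.6%), against 0.695% of its other summits. In HSB-2 the shares were 14.0% (9.76 to 19.2%) and 5.20%, in DND-41 6.34% (4.55 to 8.57%) and 3.13%, and in SUP-T13 6.17% (3.00 to 11.1%) and 2.81%. In LOUCY they were 8.77% (2.91 to 19.3%) and 6.26%, and in JURKAT 2.66% (0.869 to 6.10%) and 2.82%. These are descriptions, since each pair of lines enters both values. Among strong peaks the shares of GAS and other summits were 36.4% (20.4 to 54.9%) and 8.97% (3.68 to 17.6%) in KOPT-K1, 10.8% and 11.1% in DND-41, 29.9% and 28.6% in HSB-2, and 6 of 30 and 35 of 180 summits in SUP-T13. In the low lines they were 1 of 5 and 32.5% in LOUCY and 0 of 9 and 25.9% in JURKAT. KOPT-K1 was thus the only line in which the intervals of strong GAS and other summits did not overlap. Within 500 bp the share of strong GAS summits was higher in KOPT-K1, at 36.4% (20.4 to 54.9%) against 11.5% (5.41 to 20.8%). These intervals overlapped, so the separation in KOPT-K1 was lost at this distance. The share was lower in each of the other 5 lines, among them HSB-2 with 31.3% (20.6 to 43.8%) against 47.6% (39.3 to 56.0%).

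Gene context was read from protein-coding genes of GENCODE 44. Of the 1355 GAS summits, 727 lay between genes, 517 in introns, 80 within 2 kb of a start site (promoters), and 31 in exons outside promoters, and 687 different genes were nearest to them. The promoter share at GAS and other summits was 10.5% and 6.58% in LOUCY, 8.64% and 9.37% in SUP-T13, 5.77% and 3.04% in KOPT-K1, 5.69% and 5.67% in DND-41, 4.80% and 5.10% in HSB-2, and 4.26% and 5.30% in JURKAT. The mean difference was 0.771 percentage points (SD 2.06, n = 6, higher in 3 of 6 lines), with an exact sign-flip p of 0.469. No shift towards promoters or away from them was detectable over 6 lines, and with promoters taken as 5 kb the mean difference was −0.376.

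Among strong peaks, a comparison added after the data had been seen, the promoter share was lower at GAS summits than at other summits in 5 of 6 lines. It was 10.4% (6.83 to 14.9%, 25 of 241) and 20.7% (17.0 to 24.6%, 95 of 460) in DND-41, where the intervals did not overlap. In HSB-2 it was 7.46% (5 of 67) and 23.1%, in SUP-T13 13.3% (4 of 30) and 19.4%, in LOUCY 1 of 5 and 23.6%, and in JURKAT 0 of 9 and 19.4%. KOPT-K1 had the higher share at GAS summits, 15.2% (5.11 to 31.9%, 5 of 33) against 5.13% (1.41 to 12.6%). The mean difference over lines was −7.51 percentage points, with an exact sign-flip p of 0.156.

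The members were very unevenly spread over the genome, as were the lists they came from. Chromosomes 1 and 2 held 93.5% of the GAS summits (91.2 to 95.3%) and 99.3% of the other summits (99.0 to 99.5%) of DND-41, and 93.9% (90.0 to 96.6%) and 99.0% (98.5 to 99.3%) in HSB-2, so the share was lower at GAS summits in both. In KOPT-K1 it was higher, at 49.0% (39.1 to 59.0%) and 35.9% (33.9 to 37.9%). The intervals overlapped in SUP-T13, at 98.8% and 99.2%, in LOUCY, at 98.2% and 99.4%, and in JURKAT, at 79.3% and 82.0%. In KOPT-K1, GAS summits were 50 of 848 peaks on chromosome 2, 26 of 863 on chromosome 8, and 16 of 492 on chromosome 6, and in JURKAT they were 39 of 1055 on chromosome 3. In DND-41, chromosome 1 had 383 GAS summits among 4732 peaks (8.09%) and chromosome 2 had 192 among 1146 (16.8%). On chromosome 3 of DND-41, 24 of 49 peaks (49.0%) were GAS summits. The part of this distribution that belongs to the peak calling was not tested.

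Many strong GAS summits lay in very long intervals. The interval around the ZFP36L2 site of HSB-2 was 30.9 Mb long, and that around the CAMKMT site was 18.0 Mb in KOPT-K1 and 46.8 Mb in SUP-T13. Intervals of at least 1 Mb held 12.5% of the GAS summits of KOPT-K1 (6.83 to 20.4%, 13 of 104) and 0.522% of its other summits. In HSB-2 the shares were 8.73% (5.42 to 13.2%, 20 of 229) and 0.392%, in SUP-T13 6.17% (3.00 to 11.1%, 10 of 162) and 0.715%, and in DND-41 3.90% (2.52 to 5.75%, 24 of 615) and 0.449%. The intervals of GAS and other summits did not overlap in these 4 lines, and they overlapped in LOUCY, with 3 of 57 and 34 of 1853, and in JURKAT, with 1 of 188 and 17 of 5717. Among strong peaks alone they did not overlap in HSB-2, at 29.9% (19.3 to 42.3%) and 6.12% (2.84 to 11.3%), and overlapped in the other 5 lines, such as KOPT-K1 with 39.4% (22.9 to 57.9%) and 14.1% (7.26 to 23.8%). Such a peak has a single summit listed, so other sites within it are not counted. In peaks of at most 5 kb with a −log10 q of at least 5, 38.9% were GAS summits in DND-41 (93 of 239), against 8.81% of flank windows, and 32.3% in SUP-T13 (10 of 31), against 6.56%. The intervals of summits and flanks did not overlap in these 2 lines. In HSB-2 the share was 41.5% (26.3 to 57.9%, 17 of 41) against 17.3% (9.78 to 27.3%), a difference of 24.2 percentage points with intervals that overlapped at this small number of peaks. KOPT-K1 had 17.9% (7.54 to 33.5%, 7 of 39) against 10 of 77 flank windows.

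Repeated sequence was present among the members. The 29 bases around the nearest palindrome occurred once on the autosomes for 546 of 615 GAS summits of DND-41 (88.8%), 154 of 162 in SUP-T13 (95.1%), 88 of 104 in KOPT-K1 (84.6%), 186 of 229 in HSB-2 (81.2%), 156 of 188 in JURKAT (83.0%), and 53 of 57 in LOUCY. Among strong GAS summits it was 198 of 241 in DND-41 (82.2%), 51 of 67 in HSB-2 (76.1%), and 23 of 33 in KOPT-K1 (69.7%). SUP-T13 had 28 of 30 (93.3%), LOUCY 4 of 5, and JURKAT 5 of 9. Of all autosomal matches, 72.8% had 29 bases that occurred once. Sites with 100 or more copies numbered 19 in DND-41, 15 in HSB-2, 8 in KOPT-K1, 6 in JURKAT, 2 in SUP-T13, and 2 in LOUCY. Of these, 12, 5, 4, 2, 1, and 1 were at strong summits, in the same order.

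Other short motifs, also chosen after the data had been seen, were counted on both strands in the windows of strong summits with the palindrome masked. In DND-41 the RUNX motif TGTGGT was in 16.2% of GAS windows, 14.3% of other summit windows, and 7.88% of the flanks of the GAS summits. The ETS motif AGGAAGT was in 6.64%, 5.65%, and 1.87%. The E-box CAGCTG was in 6.22%, 7.39%, and 3.94%, and the GATA motif AGATAA in 6.22%, 6.09%, and 6.85%. The AP-1 motif TGANTCA was in 4.56%, 1.74%, and 3.32%, and the TCF/LEF motif CTTTGAT in 2.90%, 2.39%, and 1.24%. In HSB-2 the AP-1 motif was in 8.96% of GAS windows (3.36 to 18.5%) and 1.36% of other summit windows (0.165 to 4.83%). In SUP-T13 the ETS motif was in 3 of 30 and 2 of 180 windows and the RUNX motif in 26.7% and 13.3%, and in KOPT-K1 the RUNX motif was in 1 of 33 and 9 of 78. For each of the 6 motifs the intervals of GAS and other strong summits overlapped in every line, and many of them are wide. Against the flanks, the RUNX interval of the GAS windows in DND-41 was higher, 11.8 to 21.5% against 5.64 to 10.7%. The ETS interval was also higher there, 3.84 to 10.6% against 0.857 to 3.51%. All other intervals of GAS windows and flanks overlapped. A match of letters does not show that a factor was bound.

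Genes of T-cell signalling were read from 4 lists. A promoter or gene body with a GAS summit was found for 4 of 38 genes of cytokine receptors and the JAK-STAT pathway (10.5%), 7 of 55 genes of T-cell receptor signalling (12.7%), 5 of 49 T-lineage transcription factors and T-ALL drivers (10.2%), and 0 of 30 known STAT5 targets. Since 0 of these 30 had a peak of any kind there, their count says nothing about palindromes. The study, by contrast, reports STAT5B peaks at the STAT5 targets BCL2, BCL2L1, SOCS3, and RUNX3 in the 4 high pY-STAT5 lines, shown as signal tracks. How those tracks relate to the peak lists was not tested. Among all 19103 gene symbols the count was 447 (2.34%). On chromosomes 1 and 2, which hold most of the peaks, it was 4 of 19 (21.1%), 6 of 28 (21.4%), 5 of 19 (26.3%), and 0 of 4, against 418 of 3308 genes (12.6%). A peak of any kind was found there for 10 of 19 (52.6%), 18 of 28 (64.3%), 10 of 19 (52.6%), and 0 of 4 genes, against 1582 of 3308 (47.8%). These lists were not tested. Of the STAT5 targets, MCL1, a survival protein of the BCL2 family, alone had a GAS summit within 50 kb, 8.45 kb beyond the gene in DND-41 with a −log10 q of 8.05. That summit lay in a promoter of ADAMTSL4, its nearest gene.

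Sites at genes of T-cell identity and signalling are shown in the same format, with the plus strand of GRCh38 and the palindrome in capitals.

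CD8A (chr2:86785626-86785654): ctcagcatgaTTCTGAGAActctgcgggt
CD8B (chr2:86827206-86827234): ttatgagtgaTTCTTGGAAgcttgcaagg
STAT4 intron (chr2:191070613-191070641): tgcctgcttaTTCCAAGAAgtcttctcta
STAT4 last exon (chr2:191029716-191029744): tgtcaaacatTTCCTAGAAcctggtattt
CTLA4 (chr2:203836092-203836120): accttttacaTTCTCAGAAgagcagttcg
NCK2 (chr2:105770200-105770228): ctaaaggaatTTCTAAGAAtcagacttca

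CD8A and CD8B encode the chains of the CD8 co-receptor. In KOPT-K1 the palindrome lay 2 bp from the summit in the untranslated part of exon 6 of CD8A, enriched 4.61-fold at a −log10 q of 28.3. In DND-41 another palindrome lay within the CD8B gene, outside its canonical transcript, enriched 2.84-fold at a −log10 q of 22.2. The 2 lines thus had GAS summits at neighbouring genes but at different palindromes. The KOPT-K1 summit was the single one listed for an interval of 16.0 Mb, whereas the DND-41 interval was 2480 bp long.

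STAT4, itself a STAT factor that interleukin-12 activates, had 3 GAS summits. In DND-41 they lay in intron 5, with a −log10 q of 46.2, and in intron 3, with a −log10 q of 4.62. In HSB-2 the palindrome lay in the untranslated part of exon 24, with a −log10 q of 16.5. CTLA4, an inhibitory receptor of T cells, had a GAS summit 17.8 kb before the gene in DND-41, enriched 3.55-fold at a −log10 q of 16.4. The adaptor gene NCK2 had one in intron 1 in DND-41, enriched 5.17-fold at a −log10 q of 65.8.

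Among the other receptors and kinases, IL1RL2 had a GAS summit 18.9 kb beyond the gene in DND-41 with a −log10 q of 51.0. The kinase gene JAK1 had weak GAS summits, with a −log10 q of 3.70 in SUP-T13 and 1.82 in JURKAT, and IL23R had 2.62 in SUP-T13 at most within the gene. VAV3, an exchange factor in antigen receptor signalling, had 4.78 and 2.00 in SUP-T13 and 4.26 in DND-41. NR4A2, a nuclear receptor, had a GAS summit 43.1 kb before the gene in DND-41, with a −log10 q of 29.4. NOTCH2 had one in intron 2 in DND-41, with a −log10 q of 5.58, and 29 bases that occurred 2 times. In the low pY-STAT5 lines, the listed genes with a GAS summit inside or within 50 kb were JAK1, IKZF2, PIK3R3, NOTCH2, CD2, and CD58 in JURKAT and FOSL2 in LOUCY. The highest −log10 q among them was 3.65, at CD58.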

How the data were processed

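STAT5B peak lists of 6 T-ALL lines, 1 library each, were used as deposited. Per their methods and processing notes, the authors filtered reads with PRINSEQ, aligned them with BWA 0.7.15-r1140 to GRCh38, used SAMtools 1.4, and called peaks in each line with MACS2 against that line's input. The caller's options are not given in the sources used here. The deposited fold enrichment is the ratio of the STAT5B library to the input-derived background at the summit, as the authors' peak caller gave it. The deposited −log10 p and −log10 q are the authors' peak caller values at the summit, and the lowest −log10 q listed was 1.30. The deposited score, which the authors' peak caller derived from the −log10 q, was not used.

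Windows of 50 bp on either side of each summit were read from GRCh38 and searched for TTCNNNGAA, and 3 windows with unsequenced bases were left out of shares. Genes were the protein-coding genes of GENCODE 44. Shares carry exact Clopper-Pearson 95% intervals, and summits counted as above their flanks where the 2 intervals did not overlap and the summit share was higher. Tests over lines were exact two-sided sign-flip and group permutation tests. Named sites were the 10 with the highest −log10 q, the 2 highest of each line, those at summits of 3 lines, and sites in or within 50 kb of listed genes; those described were picked from the last set after their values were seen, and 2 of the 10 are not reported here. The members and lists were chosen with earlier results of these data known. Scripts were tested on simulated data and used Python 3.11.15, NumPy 2.4.6, SciPy 1.17.1, pysam 0.24.0, matplotlib 3.10.9, and samtools 1.23.1.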

Additional observations from a re-analysis of the deposited data

Results flagged for a closer look

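In some settings every high pY-STAT5 line had a summit-to-flank difference in GAS share above 0 and both low lines had one below 0. The gap between the groups was then 1.79 percentage points with windows of 25 bp, 5.59 with lists trimmed to equal length by strength, and 2.96 on chromosomes 1 and 2. It was 35.2 for peaks whose −log10 q was 10 or more, 54.2 for 20 or more, and 29.3 for 5 or more with intervals of at most 5 kb. In the low lines these strong-peak settings rest on few summits, with intervals that overlapped those of the flanks. GAS summits in LOUCY and JURKAT were 2 of 25 and 1 of 15 at 10 or more, and 1 of 7 and 0 of 8 at 20 or more. With the 5-kb limit they were 1 of 4 and 2 of 29. Each had an exact two-sided permutation p of 0.133, the smallest that 4 lines against 2 allow.

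The log2 fold enrichment of GAS summits minus other summits was above 0 in each high line and below 0 in both low lines in 2 settings. The gap between the groups was 0.10 with medians in place of means and 0.17 with sites whose 29 bases occur once. These differences between the groups were not tested.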

How the results depend on the processing

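Of 167 alternative values, 121 kept their direction and their side of the threshold or moved within their error. Values here are GAS shares at summits minus flanks, in percentage points, unless stated, and the cause of each change was not tested.

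In KOPT-K1, where the difference over all peaks was −0.0841, it was 0.0619 with windows of 25 bp, 0.104 with lists trimmed to equal length by strength, 0.436 with pyrimidine-first, purine-last spacers, and 1.82 on chromosomes 1 and 2. With flanks at 2000 bp it was 0.185 in KOPT-K1 and 0.234 in LOUCY. With the spacer rule it was 0.895 in SUP-T13, now called, and 0.0776 in LOUCY. At a −log10 q of at least 5 it was 21.6 in KOPT-K1 and 9.73 in SUP-T13, both called, and 2.52 in JURKAT. Without chromosomes 1 and 2 it was 12.6 in HSB-2, no longer called, −3.35 in SUP-T13, and 0.135 in JURKAT.

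Other alternatives were chosen after seeing the data. With intervals of at most 5 kb the difference was 2.60 in HSB-2, no longer called, and 0.660 in LOUCY. At a −log10 q of at least 10 it was 21.8 in KOPT-K1 and 33.2 in SUP-T13, both called, and at 20 or more 8.90 in KOPT-K1, not called. At 5 or more with intervals of at most 5 kb it was 25.7 in SUP-T13, called, and 24.2 in HSB-2 and 4.96 in KOPT-K1, neither called. Sites with 29 bases found once were also chosen then, as were the other motifs and spacings.

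The mean log2 fold enrichment difference was no longer past the threshold with intervals of at most 5 kb (0.10), medians (0.05), chromosomes 1 and 2 (0.14), or 29 bases found once (0.10), and remained past it for strong peaks (0.15). Leaving out each line in turn gave 0.10 to 0.15, where 5 lines allow an exact p no lower than 0.0625. It gave 0.655 to 2.00 for the mean summit-to-flank difference, 1.24 to 3.46 for the gap between groups, and 0.137 to 1.13 for the promoter difference, which was −0.376 with promoters of 5 kb and −7.51 for strong peaks (−log10 q of 5 or more), a setting chosen after seeing the data.

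The share of 3 spacer classes at summits minus flanks was 45.1 in SUP-T13, 43.4 in KOPT-K1, 8.33 in JURKAT, and 21.7 in LOUCY for peaks whose −log10 q was 5 or more. Against all autosomal matches it was 4.65 in SUP-T13, 19.6 in HSB-2, and 23.0 in DND-41. The share of central sites, summits minus flanks, within 20 bp was 10.2 in SUP-T13 and 12.9 in HSB-2, where the intervals did not overlap. At a −log10 q of at least 5 it was −16.7 in LOUCY, 5.56 in JURKAT, and 10.9 in SUP-T13. Recurrence within 500 bp, GAS minus other summits, was −0.104 in SUP-T13.

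No paired analysis was possible because each cell line is in 1 group only. An alternative without repeat-masked bases was not run, since the reference used is in upper case throughout.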
